A study of Homo sapiens with 2 samples.

Results

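Solute carriers are the large class of membrane proteins that move sugars, ions, metals, vitamins, nucleosides and metabolic intermediates across cell and organelle membranes. The genes described here are those whose symbol on the array carries the SLC prefix, apart from the families that mainly carry amino acids (SLC1, SLC3, SLC6, SLC7, SLC36, SLC38 and SLC43). The rule found 193 of the 11963 named genes on the array, from 45 families and measured by 285 probe sets. It used symbols only and no signal. Among the 193 are 5 genes that encode no carrier protein, namely SLC4A1AP, SLC2A4RG, the antisense transcript SLC67A1-AS and the pseudogenes SLC19A4P and SLC26A10P, and they are marked as such where they appear.

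The signals come from Affymetrix U133A arrays of 2 human cell lines. The first is H6c7, a line of pancreatic duct epithelium immortalised with papillomavirus genes. The second, called the K-ras line here, is H6c7 given a K-ras oncogene. Both carry the immortalising genes and only the second the oncogene. No vector control is named, and it is not stated if the K-ras cells were a clone or a pool. Each line has 1 array, so differences have no replicate check and were not tested, and that number of arrays limits the precision.

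Sugar carriers of the SLC2 family let glucose and fructose pass the plasma membrane down their gradient. In pancreatic duct cells the SLC4 and SLC26 families exchange bicarbonate and chloride for secretion of the alkaline juice. Zinc is exported from the cytosol by SLC30 proteins and brought into it by SLC39 proteins. SLC25 proteins sit in the inner mitochondrial membrane and pass metabolites, phosphate and nucleotides between matrix and cytosol.

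A floor was set at a signal of 46.9, the higher of the median signals of both arrays (43.9 parental, 46.9 K-ras), and a gene under it on both arrays is called not measured. Paired signals are given with the parental line first and the K-ras line after it. Where 1 array lay under the floor, the ratio is taken against the floor and is a bound. Of the 193 members 113 were measured (58.5%, against 64.3% of all genes): 88 were above the floor on both arrays, 16 only in the K-ras line and 9 only in the parental line. Duct identity genes were present on both arrays, with 7 of 9 listed markers above the floor on each array. Their summed signals were 17000 and 15550, and CFTR was under the floor on both arrays. The list went both ways. KRT19, SOX9, EPCAM and CA2 had log2 ratios of -1.46, -1.03, -1.06 and -2.51, KRT7 of -0.32, and KRT8, KRT18 and MUC1 of 0.88, 0.38 and 0.31. Of other cell types, 1 of 4 acinar, 0 of 4 endocrine, 1 of 3 leukocyte and 3 of 4 mesenchymal markers were measured. In the parental and K-ras lines their summed signals were 62.6 and 75.5 (acinar), 32.8 and 69.2 (endocrine), 50.5 and 61.0 (leukocyte) and 216.1 and 265.7 (mesenchymal). The part of these differences in the results below was not tested.

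The carriers leaned to the higher side in the K-ras line. Of the 113 measured members, 14 (12.4%) were higher by at least 2-fold and 9 (7.96%) lower by as much. Among all 7693 measured genes the corresponding shares were 9.97% higher and 14.4% lower. The share of higher members is thus near the background, and the share of lower members is below it. The median log2 ratio of K-ras over parental was 0.32 over the measured members against 0.10 over all measured genes, and 76 members (67.3%) had a ratio above 0 against 55.1% of all genes. A member measured on 1 array only had its sign fixed by the floor. Over those above the floor on both arrays the medians were 0.34 for members and 0.10 for all genes. When the arrays were scaled on 100 maintenance probe sets, the median of all genes rose by 0.14 on the log2 scale, and the counts of members past 2-fold became 20 higher (18.2%) and 6 lower (5.45%), against 14.4% and 11.1% of all genes under that scaling. Without _x_at and _s_at probe sets the balance of the members turned, to 6 higher and 8 lower (7.89% and 10.5%, against 9.88% and 15.5% of all genes). Without the non-carriers the counts were 13 and 9 of 110.

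**Figure D1:**
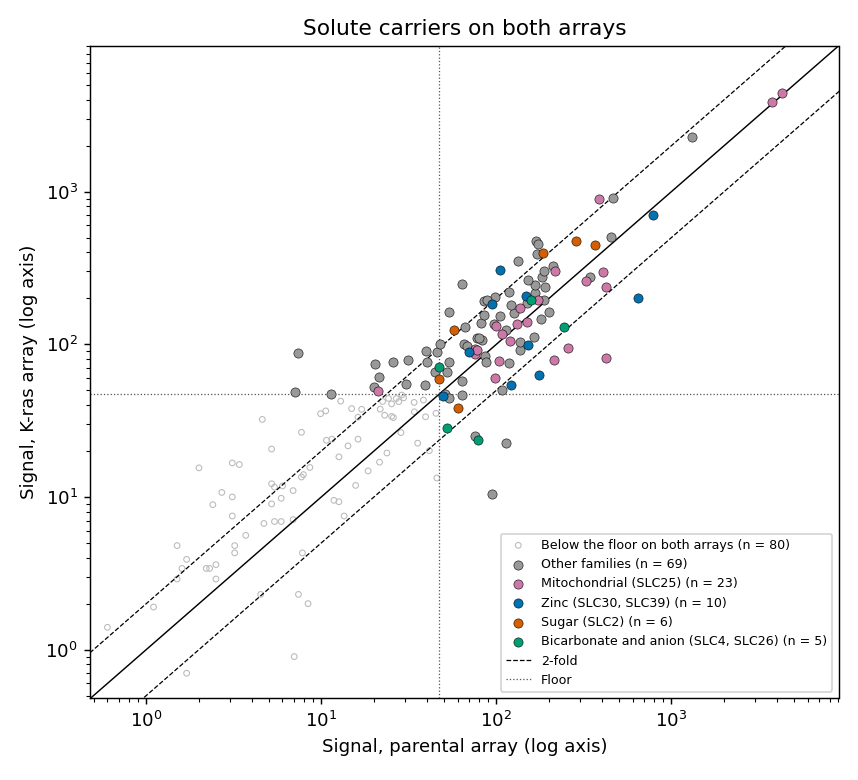
Signal on the parental array (x axis, log scale) against signal on the K-ras array (y axis, log scale) for the 193 members, coloured by group, with the floor of 46.9 dotted and 2-fold differences dashed. Of the 88 members above the floor in both lines, 14 lie above the upper 2-fold line and 7 under the lower one. Members under the floor on 1 array are drawn at their own signals, not at their bounds, and open grey points are the 80 members under the floor on both arrays.

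The medians differed among groups. The median log2 ratio was 0.53 over 6 measured sugar family members, -0.15 over 5 of the bicarbonate and anion group, -0.11 over 10 zinc carriers, 0.04 over 23 mitochondrial carriers and 0.49 over the 69 members of other families. The sugar group and the other families kept a positive median under each scaling tried. The median of the zinc group turned to 0.05 when scaled on maintenance probe sets, and that of the mitochondrial group to -0.095 under a loess curve. The bicarbonate median turned to 0.09 over its 4 carriers, without the non-carrier SLC4A1AP. None of these 3 groups thus has a direction. None of these differences between groups could be tested.

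**Figure D2:**
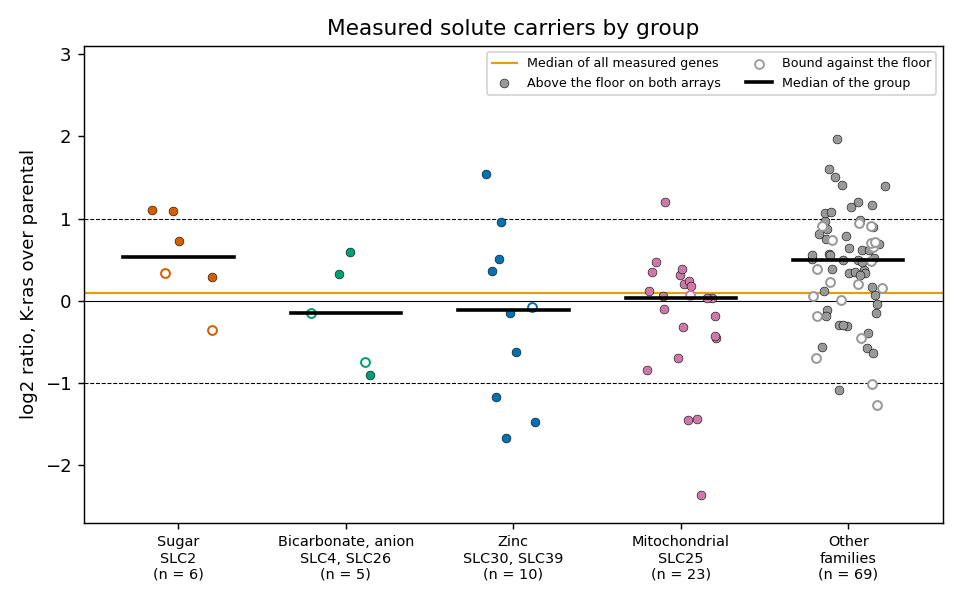
log2 ratio of K-ras over parental signal (y axis) for each measured member in 5 groups (x axis). Filled points were above the floor on both arrays, open points are bounds, black bars are group medians and the orange line is the median of all measured genes at 0.10. The sugar group (0.53) and the other families (0.49) lie above that line. The zinc and mitochondrial medians lie at -0.11 and 0.04 and change sign under another scaling, and the bicarbonate median of -0.15 is 0.09 over carriers only.

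In the sugar family, 2 of the 6 measured genes passed 2-fold, both higher in the K-ras line (33.3%, against 9.97% of all genes). SLC2A9, known as a urate carrier of this family, gave signals of 186 (parental) and 396 (K-ras) and so differed 2.13-fold. The fructose carrier SLC2A5 went from 57.4 to 123.5, which is 2.15-fold higher but starts close to the floor, and it was under 2-fold with the floor at the 70th percentile. SLC2A1, the main glucose carrier of most cultured epithelia, had signals of 286 and 475. That is a 1.66-fold difference, under the threshold. Its other probe set was under the floor in the parental line. SLC2A8 and SLC2A6 lay near the floor, with bounds at log2 ratios of 0.34 and -0.36. SLC2A4RG, a transcription factor named for the SLC2A4 gene and no carrier, had a log2 ratio of 0.29. The liver and islet carrier SLC2A2, the neuronal carrier SLC2A3, the muscle and fat carrier SLC2A4, SLC2A10 and SLC2A11 were under the floor on both arrays.

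Another route for sugar is SLC50A1, of the family known in plants as sugar exporters. It read 132 and 350, 2.65-fold higher in the K-ras line. The glucose-6-phosphate carrier of the endoplasmic reticulum, SLC37A4, had signals of 79.2 and 110, with log2 ratios of 0.48 and, on a second probe set, 0.81. The sodium-glucose carriers SLC5A1 and SLC5A4 were not measured, and SLC5A2 just passed the floor, at 53.9, on the K-ras array only. The glycolytic enzymes that use the imported glucose differed less than 2-fold in 15 of 16 measured genes, with a median log2 ratio of 0.24. PFKM, a muscle-type phosphofructokinase, was the exception at -1.14. Scaled on maintenance probe sets, PFKM was under 2-fold at -0.95 and the liver-type PFKL passed it at 1.04, so which glycolytic genes pass depends on the scaling.

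The promoter of SLC2A1 is shown because this gene is a textbook target of the hypoxia-inducible factor. The window, taken from RefSeq (GRCh38.p14), runs from 250 bases before to 50 after the gene start, at chr1:42958819-42959118 on the minus strand. Capitals mark the letters GCGTG, the core of the hypoxia response element, searched on both strands. The 1 match lies 25 bases after the gene start and was not tested as a binding site. Elements outside the window were not searched.

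SLC2A1: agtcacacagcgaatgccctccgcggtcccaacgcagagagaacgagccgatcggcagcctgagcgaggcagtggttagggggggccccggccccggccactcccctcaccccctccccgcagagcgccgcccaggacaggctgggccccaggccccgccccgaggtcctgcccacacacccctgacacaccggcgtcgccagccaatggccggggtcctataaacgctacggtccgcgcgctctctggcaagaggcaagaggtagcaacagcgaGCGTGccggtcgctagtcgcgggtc

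Such windows were found for 96 of the 113 measured members, and some genes have several. The letters GCGTG occurred in 9 of 11 members at least 2-fold higher, in 8 of 9 at least 2-fold lower and in 42 of 76 under 2-fold. Among all 27305 genes with a window, 40.6% held them. Higher and lower members thus held the letters about equally often. They contain a CG pair, and the mean GC content was 64.7% in windows of the measured members against 57.5% over all genes. Within the members it was alike, at 65.8% (higher), 63.4% (lower) and 64.7% (under 2-fold). The 11, 9 and 76 genes had 19, 14 and 106 windows, and a match in any window was counted. The part of GC content and of window number in these shares was not tested. The letters TGATGNAA, bound by C/EBP and ATF factors in stress, occurred in 5 of the 96 genes (5.21%) against 4.46% of all genes.

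Carriers of bicarbonate and chloride were mostly close to or under the floor. Of 14 members of SLC4 and SLC26 only 5 were measured. None of the 5 passed 2-fold, against 9.97% higher and 14.4% lower of all genes, but 2 of the 5 ratios are bounds. The anion exchanger SLC4A2, which swaps chloride for bicarbonate at the basolateral side of many epithelia, had signals of 157 and 196, a log2 ratio of 0.32. The sodium-bicarbonate carrier SLC4A4, which loads duct cells with bicarbonate, was barely above the floor at 47.3 and 71.5 on an _x_at probe set, a type that can pick up related transcripts. A second SLC4A4 probe set gave 9.5 and 93.1, so the gene's level in the parental line is not fixed beyond being low. SLC4A7, another sodium-bicarbonate carrier, had signals of 78.4 and 23.6, a drop of at least 1.67-fold. With the floor at the 30th percentile it was past 2-fold lower, at a log2 ratio of -1.73. Another of its probe sets read 36.2 and 41.7, under the floor on both arrays. SLC4A5 has no direction, with bounds at -0.15 and 0.22 in 2 probe sets. SLC4A1AP, no carrier, had a log2 ratio of -0.90.

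All 5 SLC26 genes among the members, 1 of them a pseudogene, were under the floor on both arrays. They include the chloride-bicarbonate exchanger SLC26A3 and the sulfate carrier SLC26A2. SLC26A6 has no probe set annotated to it alone, so it is not a member and its level is not known here. Of 14 genes listed as partners of these carriers, 7 were measured. At least 2-fold lower were 3 (42.9%, against 14.4% of all genes), and none was higher. The list was chosen with earlier results of these data known, so the contrast of these shares is description only. The water channel AQP3 went from 696 to 103, a log2 ratio of -2.76. The carbonic anhydrase CA2, which makes bicarbonate, went from 267 to 43.0, and the membrane-bound CA12 from 224 to 108. CA12 kept its 2-fold difference only with a loess curve and a lower floor, and was at -0.51 with the median over probe sets, where AQP3 too was under 2-fold (-0.96). The chloride channels CFTR and ANO1 and the secretin receptor SCTR were not measured. Chloride entry with sodium and potassium runs through SLC12A2. It read 164 and 111, a log2 ratio of -0.56.

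The other cation-chloride carriers of SLC12 lay on the opposite side of SLC12A2. SLC12A4, a potassium-chloride exporter that responds to cell volume, went from 84.9 to 191 and was 2.25-fold higher. Another pair of its probe sets, measured only on the K-ras array, gave bounds at log2 ratios of 0.33 and 0.69 only, and the median over probe sets, the higher floor and the removal of _x_at and _s_at types each ended its call. SLC12A7, a related exporter, had signals of 182 and 278, and SLC12A9 of 82.1 and 139. The kidney members SLC12A1 and SLC12A3 and the neuronal SLC12A5 were not measured. Over the 5 measured SLC12 members the median log2 ratio was 0.62.

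Zinc carriers differed in both directions. Past 2-fold were 1 higher and 3 lower genes of the 10 measured, against 9.97% higher and 14.4% lower of all genes. The share of higher zinc carriers is thus near the background. The count of lower ones is too small to set apart from it. SLC39A6, a zinc importer also known as LIV-1 and tied to epithelial cell adhesion, had signals of 641 and 202, 3.17-fold lower. Its second probe set gave a log2 ratio of -1.12 beside -1.67. SLC39A8, an importer of zinc and manganese, went from 121 to 53.7, near the floor, and was 2.26-fold lower, with -0.81 in a second probe set. It was under 2-fold with maintenance scaling and with the median over probe sets (-0.37 at the weakest). Against these stood SLC39A4, the importer whose loss causes the zinc deficiency acrodermatitis enteropathica. It read 105 and 305, 2.90-fold higher in the K-ras line on a single probe set.

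The remaining importers were under 2-fold. SLC39A14, known to be induced in inflammation and to carry iron as well as zinc, had signals of 785 and 707. SLC39A1, a plasma membrane importer, had signals of 147 and 208. SLC39A7, which releases zinc from the endoplasmic reticulum, had signals of 69.3 and 89.3. SLC39A9 was at the floor, with 49.4 and 45.6.

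Among the exporters, SLC30A9 was 2.79-fold lower, from 176 to 63.1, a call lost with the floor at the 70th percentile. It is a mitochondrial zinc exporter. SLC30A1, which removes zinc across the plasma membrane, had signals of 152 and 98.7, a log2 ratio of -0.63 that is under 2-fold. SLC30A5, a carrier of the secretory pathway, cannot be placed. Both of its probe sets are of the _x_at type, and they gave log2 ratios of 0.96 and -1.08. SLC30A3, SLC30A4, SLC30A6 and SLC30A10 were not measured.

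The windows of SLC30A1 and SLC39A6 are shown because SLC30A1 is a textbook target of the zinc sensor MTF1 and SLC39A6 had the lowest ratio of the zinc carriers. Capitals mark the metal response letters TGCNCNC, searched on both strands, so that a match on the other strand reads GNGNGCA. Both are RefSeq sequence (GRCh38.p14) on the minus strand, at chr1:211579112-211579411 and chr18:36129291-36129590.

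SLC30A1: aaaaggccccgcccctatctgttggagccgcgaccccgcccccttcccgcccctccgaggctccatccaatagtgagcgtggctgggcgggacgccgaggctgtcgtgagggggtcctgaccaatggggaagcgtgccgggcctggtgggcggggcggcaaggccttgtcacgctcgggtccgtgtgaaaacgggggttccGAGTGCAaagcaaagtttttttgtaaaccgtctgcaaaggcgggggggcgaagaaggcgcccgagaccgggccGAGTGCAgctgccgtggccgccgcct

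SLC39A6: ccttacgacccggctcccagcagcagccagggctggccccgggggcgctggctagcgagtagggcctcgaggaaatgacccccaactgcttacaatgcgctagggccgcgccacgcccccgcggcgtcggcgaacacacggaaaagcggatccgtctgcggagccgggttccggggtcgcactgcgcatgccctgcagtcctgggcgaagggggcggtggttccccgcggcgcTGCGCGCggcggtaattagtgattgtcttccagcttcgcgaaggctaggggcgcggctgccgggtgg

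SLC30A1 had 2 matches and SLC39A6 had 1. The letters are common: 59.4% of all genes with a window held them, as did 4 of the 8 measured zinc carriers with a window. Metallothioneins, which bind zinc and are the best known MTF1 targets, were mostly lower on the K-ras array. In the list of MTF1 and metallothioneins, 6 of 7 measured genes had a ratio below 0, with a median log2 ratio of -0.37. On the lower side 1 gene passed 2-fold (14.3%, against 14.4% of all genes). That was MT1F, with signals of 2036 and 952, which was under 2-fold when scaled on maintenance probe sets (-0.90) and with the median over probe sets (-0.83). MTF1 itself had signals of 95.1 and 127. Metallothionein genes are nearly identical in sequence, so the probe sets of the family are uncertain.

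Mitochondrial carriers differed little as a family. Among the 23 measured, 1 was higher (4.35%) and 3 were lower (13.0%) by at least 2-fold, against 9.97% and 14.4% of all genes. The bulk carriers were level. The adenine nucleotide carrier SLC25A5, which exchanges ADP for ATP, had signals of 4278 and 4436. The phosphate carrier SLC25A3 had 3758 and 3835. SLC25A4, the muscle form of the nucleotide carrier, had 173 and 196. These 3 log2 ratios were 0.05, 0.03 and 0.18.

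SLC25A24, a calcium-regulated carrier that exchanges ATP-magnesium for phosphate, had the lowest ratio of all members. It read 423 and 81.9, 5.16-fold lower in the K-ras line on a single probe set. SLC25A46, an outer membrane protein of this family that takes part in mitochondrial fission, was 2.73-fold lower, from 257.5 to 94.4. SLC25A13, the aspartate-glutamate carrier of the malate-aspartate shuttle, was 2.71-fold lower, from 214 to 79.0, a call lost with the floor at the 70th percentile. Its close relative SLC25A12 had signals of 104 and 77.4, and the oxoglutarate carrier of the same shuttle, SLC25A11, had 406 and 298. All 3 shuttle carriers thus read lower on the K-ras array, though only SLC25A13 by 2-fold. Without _x_at and _s_at probe sets, or with the median over probe sets, SLC25A12 also passed 2-fold, with a log2 ratio as low as -1.46.

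The citrate carrier SLC25A1, which supplies cytosolic citrate for fatty acid synthesis, was the only mitochondrial member at least 2-fold higher. It read 386 and 891, a 2.31-fold difference. The dicarboxylate carrier SLC25A10, the glutamate carrier SLC25A22 and the carnitine-acylcarnitine carrier SLC25A20 had log2 ratios of 0.32, 0.35 and 0.39. SLC25A32, a carrier of folate and flavin, had signals of 425 and 238. The iron importer SLC25A37 had 98.2 and 60.5, against a bound of 0.35 in another probe set, and its relative SLC25A28 had 77.1 and 91.4. The peroxisomal carrier SLC25A17 gave log2 ratios of -0.18 and 0.97 in 2 probe sets and has no direction. SLC25A15, SLC25A38 and SLC25A44 lay between -0.10 and 0.12.

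Other proteins of the mitochondrial membranes went both ways. Of 18 measured pores, pyruvate carriers and import subunits, 1 was at least 2-fold higher and 2 lower, with a median log2 ratio of 0.13. These shares were 5.56% and 11.1%, against 9.97% and 14.4% of all genes. TIMM44, which drives protein import, had signals of 181 and 574. The pore VDAC3 had 1855 and 658, and the import receptor TOMM20 had 935 and 452. TOMM20 was under 2-fold with maintenance scaling (-0.85) and the median over probe sets (-0.31). Among carriers outside SLC25, the mitochondrial sodium-calcium exchanger SLC8B1 was 3.04-fold higher. The parental signal of 53.9 was close to the floor and the K-ras signal was 164, and the call was lost with the floor at the 70th percentile.

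**Figure D3:**
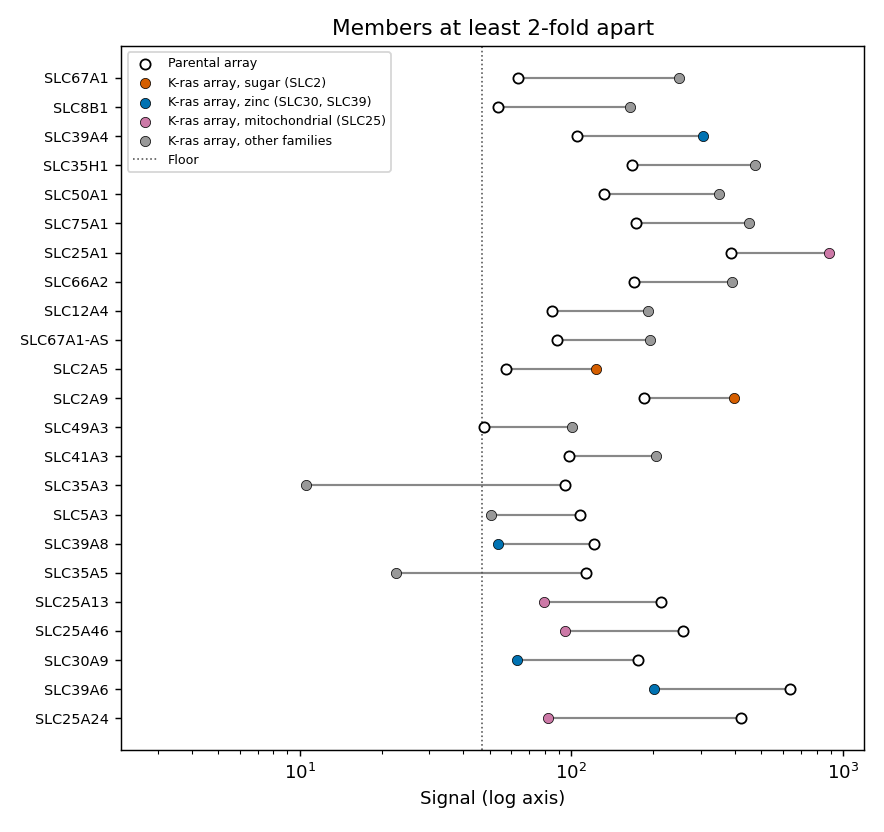
Signals on the parental array (open circles) and the K-ras array (filled circles, coloured by group) on a log axis for the 23 members at least 2-fold apart, ordered by log2 ratio. SLC67A1 is at the top with 63.6 and 249, SLC25A24 at the bottom with 423 and 81.9, and the K-ras signals of SLC35A3 and SLC35A5 lie under the dotted floor of 46.9.

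Nucleotide sugar carriers of SLC35 bring activated sugars into the Golgi and the endoplasmic reticulum for glycosylation. The 14 measured SLC35 members are not all of this kind. Among the 14, 1 was higher (7.14%) and 2 were lower (14.3%) by at least 2-fold, against 9.97% and 14.4% of all genes. SLC35H1, also named SLC35C2 and known to act in fucosylation, had signals of 167 and 473, 2.83-fold higher. SLC35A5 went from 113 to 22.7 and was at least 2.42-fold lower. SLC35A3, which carries UDP-N-acetylglucosamine, went from 94.7 to 10.5 and was at least 2.02-fold lower, under 2-fold with maintenance scaling and with the median over probe sets. The K-ras signals of both lie under the floor, so the true size of these differences is not given by the array.

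The carriers of single sugars in this family did not go together. The UDP-galactose carrier SLC35A2 had signals of 186 and 301, with a second probe set at a log2 ratio of 1.09. The GDP-fucose carrier SLC35C1 had 121 and 180. The CMP-sialic acid carrier SLC35A1 had 64.0 and 46.5. SLC35D1, for UDP-glucuronic acid, had 137 and 104 and SLC35D2 had 85.0 and 156. SLC35B1, an ATP carrier of the endoplasmic reticulum, had signals of 464 and 913, just under 2-fold at a log2 ratio of 0.98. Scaling on maintenance probe sets put 4 of the 14 measured genes of the family past 2-fold on the higher side and 1 on the lower. Under that scaling 14.4% of all genes were higher and 11.1% lower by as much.

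The largest ratio of all members was that of SLC67A1, an organic cation carrier formerly named SLC22A18. It lies in the imprinted gene cluster linked to Beckwith-Wiedemann syndrome. It read 63.6 and 249, 3.915-fold higher in the K-ras line on a single probe set. The gene on the opposite strand of the same locus, SLC67A1-AS, was higher too. Its signals were 88.3 and 195, a 2.21-fold difference that was under 2-fold with the floor at the 70th percentile, and it encodes no carrier. Of the SLC22 family of organic ion carriers, 3 of 10 were measured. The carnitine carrier SLC22A5 had signals of 82.6 and 107, and SLC22A4, for ergothioneine, had 39.6 and 90.1.

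Carriers of lysosomes and of unsettled function were grouped together after the values were seen. All 7 were measured, 3 of them at least 2-fold higher (42.9%, against 9.97% of all genes) and none as much lower (against 14.4%). As the group was formed that way, its share is description only. SLC75A1, also named MFSD10, had signals of 172 and 452, 2.62-fold higher. SLC66A2, of a family with lysosomal members, had 170 and 389, 2.29-fold higher. SLC49A3 had 47.6 and 100.2, 2.105-fold higher but starting at the floor, and just under 2-fold with a loess curve. SLC66A1, which exports cationic amino acids from lysosomes, was above the floor only in the K-ras line, at 76.9. SLC61A1 and SLC68A1 had log2 ratios of -0.30 and -0.19.

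The metal and heme carriers among the members were all measured, 6 of 6. At least 2-fold higher was 1 (16.7%, against 9.97% of all genes), and none was as much lower (against 14.4%). The iron carrier SLC40A1 has no probe set annotated to it alone, so it is not a member and its level is not known here. SLC41A3, of a magnesium carrier family, had signals of 97.6 and 204, 2.09-fold higher, a call that the floor at the 70th percentile ended. The iron importer SLC11A2 had 136 and 91.4, and 3 of its probe sets gave log2 ratios from -0.57 to 0.75, so it has no direction. The copper importer SLC31A1 had 86.2 and 83.8 and its relative SLC31A2 had 77.6 and 109. The heme carrier SLC48A1 had 165 and 243, and a second probe set repeated its log2 ratio of 0.56 with 0.57.

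Sodium-coupled, phosphate and vitamin carriers followed. SLC5A3, which accumulates myo-inositol under osmotic stress, had signals of 107 and 50.4, 2.13-fold lower, with the K-ras signal just above the floor, and under 2-fold with maintenance scaling. SLC5A6, the multivitamin carrier for biotin and pantothenate, had 190 and 236. The phosphate importer SLC20A1 had 1318 and 2265, a log2 ratio of 0.78, and its relative SLC20A2 had 165 and 217. None of the 6 measured members of the phosphate and sugar phosphate families reached 2-fold, and 2 of them, SLC17A4 and SLC34A1, were measured only on the K-ras array. The reduced folate carrier SLC19A1 had 186 and 196 on one probe set and 113 and 42.8 on another, and so has no settled ratio. The thiamine carrier SLC19A2 had 63.4 and 57.2. The ascorbate carrier SLC23A2 had 118 and 75.9, with -0.63 and -0.33 in 2 probe sets and a bound of 0.13 in another. The riboflavin carrier SLC52A2 had a log2 ratio of 0.81 on an _x_at probe set and 2.26 on its other probe set.

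Most nucleoside carriers were near or under the floor. The 3 concentrative carriers SLC28A1, SLC28A2 and SLC28A3 were each under the floor in the parental line and at 76.2, 52.3 and 88.4 in the K-ras line, so that the floor fixed their sign. The equilibrative carrier SLC29A1, the usual entry route of nucleosides, had signals of 341 and 276, with -0.31 and -1.03 in its 2 probe sets. Among monocarboxylate carriers only SLC16A5 of 5 members was measured, at 66.2 and 129 (log2 ratio 0.97), with 0.40 in a second probe set. SLC16A1 and SLC16A3 of this family have no probe set annotated to them alone, so they are not members and their levels are not known here. BSG, the membrane partner that brings such carriers to the cell surface, had 770 and 1607. Several other members appeared in the K-ras line alone at under 2-fold above the floor. The dicarboxylate carrier SLC13A3, for one, had 7.4 and 87.9.

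Signals under the floor also leaned to the K-ras side. Of the 80 members under the floor on both arrays, 61 (76.2%) had the higher signal on the K-ras array, and so did 69.4% of the 4270 such genes overall. The part of this in the bounds was not tested. The median of the members was above that of all genes in dim and bright classes alike. With all measured genes ranked by mean signal and cut at signals of 86.4 and 239, the median log2 ratio of the members was 0.20, 0.36 and 0.38 from the dimmest to the brightest class. Those of all genes were 0.12, 0.05 and 0.09. In the brightest class 5 of 20 members (25.0%) were past 2-fold on the higher side and 1 on the lower, against 12.4% and 14.1% of all genes there.

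The one repeat measurement in these data is that between probe sets of a gene, which is technical. For 19 members a further probe set exceeded the floor in both lines, and in 15 of them all probe sets had the same sign. Between probe sets of a gene, log2 ratios had a pooled standard deviation of 0.52 over these 19 and 0.46 over 1671 genes in all. Of the 23 members at least 2-fold apart only 2, SLC39A6 and SLC39A8, had such a second probe set. Both second probe sets gave the same sign.

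**Figure D4:**
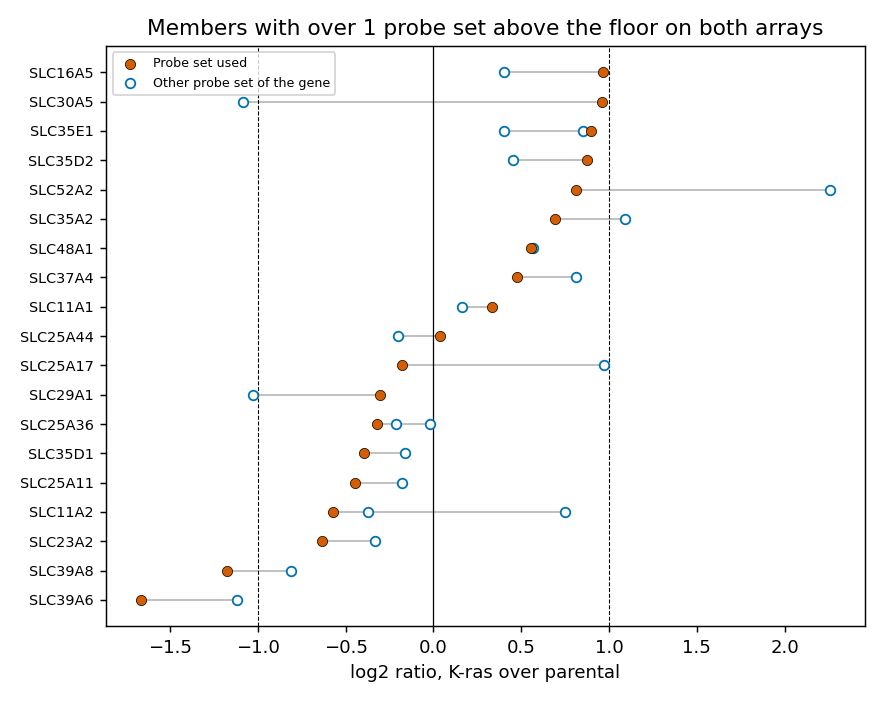
log2 ratio of K-ras over parental (x axis) of the probe set used (filled) and of its other measured probe sets (open; floor passed in both lines) for the 19 members with such a repeat (y axis). In 15 members all points lie on the same side of 0, while SLC30A5 (0.96 and -1.08), SLC25A17 (-0.18 and 0.97), SLC11A2 and SLC25A44 have points on both sides.

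Transporters of other classes on the same arrays gave different balances, which could not be tested against the carriers. Of 28 measured genes of the amino acid carrier families 6 were at least 2-fold higher (21.4%) and 1 lower (3.57%), with a median log2 ratio of 0.40. Among 19 measured ABC transporters 1 was higher (5.26%) and 2 lower (10.5%), with a median of 0.26. Among 8 measured ATPase pumps 1 was higher (12.5%) and 2 lower (25.0%), with a median of -0.25. The shares of all genes were 9.97% higher and 14.4% lower, and the counts of the ABC transporters and pumps are too small to set apart from them. All 10 members of the urea, peptide, vesicular amine and choline families were under the floor on both arrays. So were 8 of the 14 members of the phosphate and sugar phosphate families and 9 of the 14 organic ion carriers. These are families known mainly from kidney, liver, gut and nerve.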

How the data were processed

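The table deposited by the authors gives linear-scale intensities of 22283 probe sets (68 controls) on 2 arrays. Per the labels, RNA was extracted with phenol and chloroform, purified on columns and made into cRNA by the manufacturer's procedure. What software made the intensities is not stated in the labels. The means after removal of the lowest and highest 2% of probe sets were 150.06 in both deposited columns. Columns were set to equal trimmed means. Probe sets with exactly 1 annotated symbol (19065) were used, and those with several (1043) or none (2107) left out. All 193 member symbols matched RefSeq (GRCh38.p14) by gene number. A gene is represented by its probe set of highest mean log2 signal. The floor is the 50th percentile, and a call needs at least 2-fold.

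The members, lists and named genes were chosen with earlier results of these data known. Named are all members at least 2-fold apart, the 3 brightest of each group, fixed well-known members, and others that complete a family. The finer family groups were drawn up after the values were seen. The alternatives were 3 scalings, 2 floors, 2 ways of choosing probe sets and a 3-fold threshold. The calling was tested on simulated data, with large changes planted in bright genes only. That test does not cover differences close to 2-fold or signals near the floor. Python 3.11.15, numpy 2.4.6, pandas 2.3.3, statsmodels 0.14.6 and matplotlib 3.10.9 were used.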

Additional observations from a re-analysis of the deposited data

How the results depend on the processing

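The count of carriers at least 2-fold higher, 14 as reported, was 25 with the floor at the 30th percentile, 8 with it at the 70th, 6 without _x_at and _s_at probe sets (which leaves 148 members) and 2 at a 3-fold threshold (1.77%, against 2.40% of all genes). The count of lower carriers, 9 as reported, was 3 with the floor at the 70th percentile, 2 at 3-fold (1.77%, against 6.24%) and 8 without _x_at and _s_at probe sets. The median of the zinc carriers was -0.63 without _x_at and _s_at probe sets, since SLC39A4 and others are then missing. The other 44 of 51 group values stayed within 1.5 times the count or within the spread between probe sets (0.46). The 3-fold threshold is left out of the counts per gene that follow, which cover the other 7 alternatives. Of the 23 called members 12 kept their call under each of these that gave them a value, and 7 of the 12 had a value under all 7. No called member changed sign. SLC12A4 lost its call under 3 alternatives, SLC35A3 and SLC39A8 under 2 each, and 8 others under 1. The bicarbonate median was 0.20 with the floor at the 30th percentile and 0.09 without _x_at and _s_at probe sets, in place of -0.15. No paired analysis was possible because each line has 1 array. For the same reason no replicate could be left out. Signals near the floor limit SLC49A3, SLC2A5, SLC8B1, SLC5A3 and SLC39A8.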
